A study of Mus musculus with 3 samples.

Results

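The enzymes of glycolysis and of the pentose phosphate pathway were examined in the embryonic region of the mouse embryo, as a set of 44 listed gene symbols that also takes in pyruvate dehydrogenase and its kinases. A member was any row of the array table that carries one of these symbols, and 41 of the 44 were found among the 30854 symbols of the table. *Hk2*, *Ldhb* and *Gapd* were absent, the last being an older symbol of *Gapdh*, which was present. No measured value entered this rule, although the members were listed with earlier results of these data known.

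All RNA came from wild-type embryos of a single stage, early headfold (EHF), cut at the junction with the extraembryonic tissue so that the embryonic portion was kept. The sample labels name the strain as Cd-1 and a QIAGEN RNeasy kit, whereas the methods of the study name wild-type ICR mice and TRIzol, and neither states whether each array held 1 embryo or pooled embryos. Biotinylated cRNA was hybridized to 3 Illumina Mouse-6 arrays, replicates 1, 2 and 3 of the only group, so that no genotypes, stages or tissues could be compared. The sources used here name no transgene or mutation for these embryos.

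Glycolysis splits glucose into pyruvate, which lactate dehydrogenase reduces to lactate or pyruvate dehydrogenase passes to the mitochondria. The pentose phosphate pathway leaves glycolysis at glucose phosphate and supplies NADPH and ribose, and its non-oxidative branch returns carbon to glycolysis. Most steps are served by several isozymes from separate genes, some of them known mainly from particular adult tissues such as muscle, liver, brain or testis. Embryos around gastrulation are known for a high use of glucose and a large output of lactate.

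The authors deposited a log2 signal for each symbol, not normalized between arrays, and a detection p. For a symbol with 1 probe this is the fraction of negative-control probes on that array that reached its signal, and for a symbol with several probes it is a combined value. Genes passing a detection p of 0.01 on each of the 3 arrays are called above background here. As the background level of each array served the dimmest single-probe symbol that still passed with a p above 0, and it lay at 6.69, 6.66 and 6.58 on replicates 1, 2 and 3. The arrays differed in depth of detection, with 9015, 8220 and 7191 symbols passing on replicates 1, 2 and 3 and a median of 43 to 44 beads per symbol. Of 18 marker genes of the embryonic region 14 were above background, and so were 13 of 14 markers of visceral endoderm, 5 of 15 of extraembryonic ectoderm and trophoblast, and 1 of 9 of primitive erythroid cells. These are 77.8%, 92.9%, 33.3% and 11.1% of the lists, against 20.6% of all symbols. The 5 were *Bmp4*, *Cdx2*, *Ets2*, *Rhox5* and *Tcfap2c*, while 9 of the same 15 passed on no array. The summed linear signal of the visceral endoderm markers was 15279, 16322 and 7836 on replicates 1, 2 and 3, that of the erythroid markers 873, 835 and 794, and that of the embryonic region markers 12168, 8881 and 6944. These sums were not normalized between arrays and include the background of each symbol, and 8 of the 9 erythroid markers passed on no array. Over all symbols the sum also fell, from 7.42e+06 to 6.69e+06 and 5.44e+06 on replicates 1, 2 and 3. The embryonic globin genes *Hba-x*, *Hbb-bh1* and *Hbb-y* passed on no array. The part of visceral endoderm in the signals of the enzymes was not tested, and in such whole tissue fewer cells of a type and less RNA per cell cannot be told apart.

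Of the 41 enzymes in the table, 20 were above background, which is 48.8% of them, against 20.6% of all symbols. They were *Aldoa*, *Eno1*, *Eno2*, *Eno3*, *G6pdx*, *Gapdh*, *Ldha*, *Ldhc*, *Pdha1*, *Pdhb*, *Pdk1*, *Pdk3*, *Pfkfb4*, *Pfkm*, *Pgam1*, *Pgd*, *Pkm2*, *Rpia*, *Taldo1* and *Tpi1*. A further 4 passed on 2 arrays, 4 passed on 1 array, and 13 passed on none. The median of the mean signals was 7.19 over the 41 enzymes and 6.49 over all symbols. Because probes hybridize with unequal strength, each signal was set only against the background of its own array, and no order of transcript abundance was drawn from them.

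**Figure D1:**
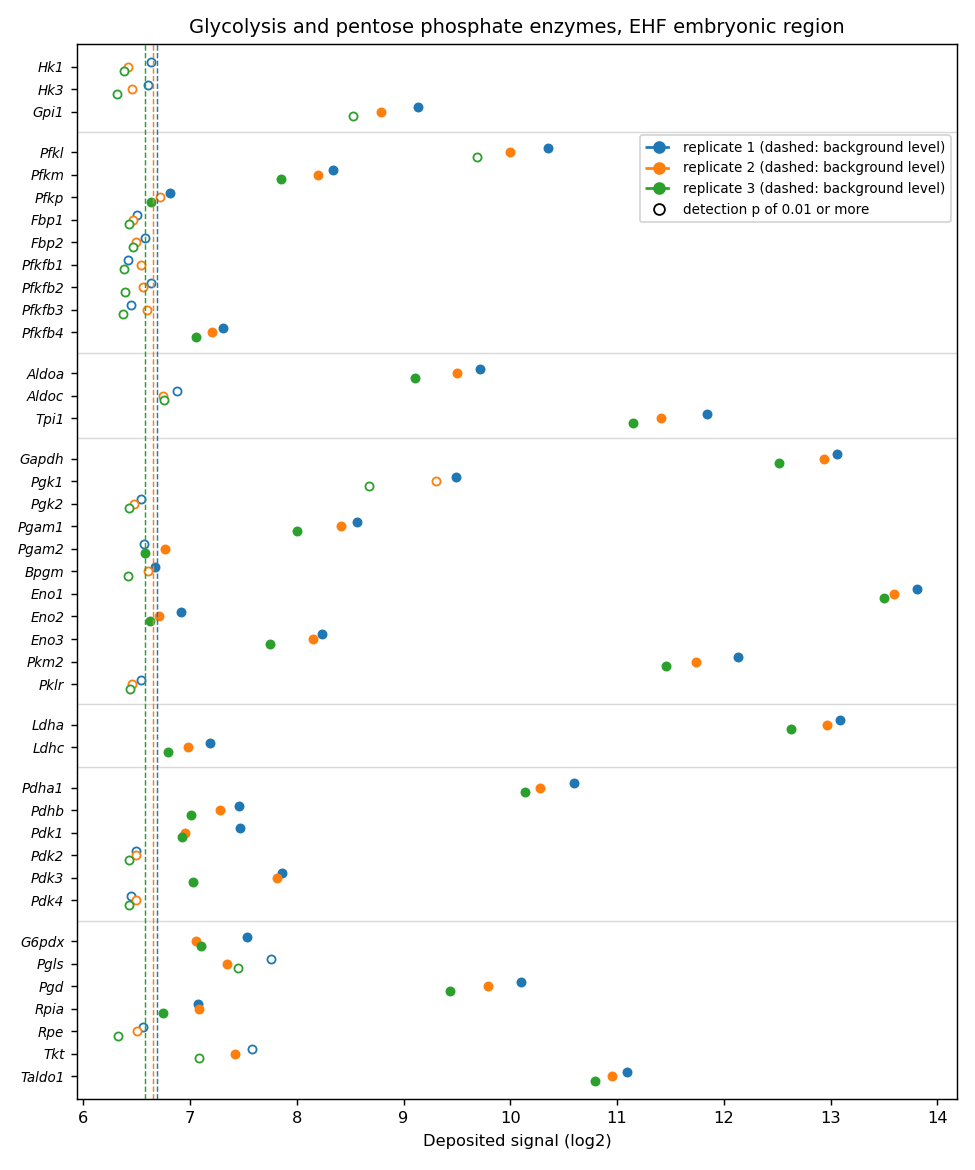
Deposited log2 signal of each of the 41 enzymes (rows, grouped by role) on replicates 1, 2 and 3 (colours), with filled points for a detection p under 0.01 and dashed lines for the background level of each array. The 20 enzymes above background have 3 filled points, and those that passed on no array lie to the left of the dashed lines or close to them, at mean signals of 6.45 (*Pfkfb1*) to 6.79 (*Aldoc*).

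Each level was also given with an error over the arrays. For this the signals were background-corrected by normexp and quantile normalized, the background level of each array was subtracted, and limma tested whether it exceeded 0 (one-sided). The moderated variances of limma gave the same standard error, 0.15 on the log2 scale, for every gene, although the SD of the normalized level over the arrays ran from 0.01 for *Aldoa* and *Pdhb* to 0.44 for *Pdk3*. The adjusted p-values therefore treat the spread as equal between genes. The test called 25 of the 41 enzymes at an adjusted p under 0.05 and 25.7% of all symbols.

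None of the 3 genes measured for the steps from glucose to fructose phosphate was above background on all arrays. *Hk1*, the hexokinase of most tissues, which traps glucose in the cell, had signals of 6.64, 6.42 and 6.38 on replicates 1, 2 and 3, each below the background level of its array. *Hk3*, a hexokinase of blood and other tissues, had 6.61, 6.46 and 6.32 and was likewise below background on each array. *Hk2* was not measured, so the array gave no hexokinase above background. *Gpi1*, the isomerase that turns glucose phosphate into fructose phosphate, had signals of 9.14, 8.79 and 8.52, far over the background level on each array. Its detection p was 0.000357 and 0.00116 on replicates 1 and 2 but 0.0503 on replicate 3, so that it missed the threshold there. Its level after normalization was 3.74 above background and was called by the limma test.

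Of the 9 genes of the phosphofructokinase step and its control, 2 were above background, which is 22.2% of them and close to the 20.6% of all symbols. Phosphofructokinase commits sugar to glycolysis, and its muscle, liver and platelet subunits are encoded by *Pfkm*, *Pfkl* and *Pfkp*. *Pfkm* had signals of 8.34, 8.20 and 7.85 and passed on all arrays, 2.87 above background after normalization. *Pfkl* had signals of 10.35, 10.00 and 9.69, and its detection p was 6.91e-05 and 0.000128 on replicates 1 and 2 and 0.0969 on replicate 3. *Pfkp* lay just at the threshold, with signals of 6.81, 6.72 and 6.63 and a detection p of 0.00972, 0.0102 and 0.00704. All 3 subunit genes thus had signals above the background level on every array, but only *Pfkm* passed the detection rule on each of them, and the limma test called *Pfkm* and *Pfkl* but not *Pfkp* (level 0.25, adjusted p 0.193).

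*Pfkfb4*, one of the 4 bifunctional enzymes that make and remove the sugar phosphate activating phosphofructokinase, was above background with signals of 7.31, 7.21 and 7.06. The other members of that family did not pass on any array. *Pfkfb1*, known from liver and muscle, had signals of 6.42, 6.54 and 6.39, *Pfkfb2*, known from heart, had 6.63, 6.56 and 6.39, and *Pfkfb3* had 6.45, 6.59 and 6.37. All 9 of these values lay below the background level of their array, whereas *Pfkfb4* lay above it on each. Fructose bisphosphatase, which runs the step backwards in gluconeogenic tissue, is encoded by *Fbp1* in liver and kidney and *Fbp2* in muscle, and neither passed on any array, with mean signals of 6.47 (SD 0.04, n = 3) and 6.51 (SD 0.06, n = 3).

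Aldolase cleaves the 6-carbon sugar, and triose-phosphate isomerase makes both products usable. *Aldoa*, the aldolase of muscle and of most embryonic cells, had signals of 9.72, 9.50 and 9.11 and was 4.45 above background after normalization. *Aldoc*, the brain aldolase, had signals of 6.88, 6.74 and 6.76, each slightly over the background level, and a detection p of 0.433, 0.245 and 0.0118. It passed on no array, although the limma test called it with a level of 0.47 and an adjusted p of 0.00464. With the background level set at the median of dim symbols that call was lost (level 0.27, adjusted p 0.0812). *Tpi1*, the isomerase, had signals of 11.84, 11.42 and 11.15 and was 6.59 above background. Its 3 signals were well apart from the background on all arrays, as were those of *Aldoa*.

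In the lower part of glycolysis, where ATP and NADH are gained, 6 of 11 genes were above background. This is 54.5% of them, against 20.6% of all symbols. *Gapdh*, which encodes the dehydrogenase that makes the NADH of glycolysis, had signals of 13.06, 12.94 and 12.51, from 118, 132 and 119 beads. *Eno1*, the enolase of most cells, had signals of 13.81, 13.59 and 13.50. *Pkm2*, now named *Pkm*, encodes the pyruvate kinase of most embryonic and muscle cells and had signals of 12.13, 11.74 and 11.46. After normalization these genes were 8.00, 8.76 and 6.91 above background on the log2 scale. The symbol *Pkm2* names the gene here, and splice forms of *Pkm* were not resolved.

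*Pgk1*, which encodes the X-linked phosphoglycerate kinase of somatic cells, had signals of 9.49, 9.31 and 8.67, over the background level on every array, but passed on replicate 1 only, with a detection p of 0.00191, 0.282 and 0.0576. Its level after normalization was 4.13 above background and was called by the limma test. *Pgk2*, the autosomal copy known from spermatogenesis, had signals of 6.54, 6.47 and 6.43, below the background level on every array.

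Phosphoglycerate mutase likewise has a widely used gene and a muscle gene. *Pgam1*, the mutase of most tissues, had signals of 8.57, 8.41 and 8.01, all above background. *Pgam2*, the muscle mutase, had signals of 6.57, 6.76 and 6.58 and passed on replicates 2 and 3 but not on replicate 1, where its detection p was 0.189. Its values straddled the background level, which makes it a call that did not hold on every array. *Bpgm*, the mutase of red blood cells that sets the oxygen affinity of haemoglobin, had signals of 6.67, 6.61 and 6.42 and passed on replicate 1 only. Each of these signals lay below the background level of its array, also on replicate 1. The promoters of *Pgam1* and *Pgam2* differ in their content of CpG dinucleotides. For that reason 120 bases before the RefSeq start of each gene (build GRCm38.p6) are shown, read 5′ to 3′ on the strand of the gene with every CpG in capitals. The *Pgam1* stretch is chr19:41911751-41911870 on the plus strand and holds 14 CpG. The *Pgam2* stretch is chr11:5803797-5803916 on the minus strand and holds 0.
Pgam1: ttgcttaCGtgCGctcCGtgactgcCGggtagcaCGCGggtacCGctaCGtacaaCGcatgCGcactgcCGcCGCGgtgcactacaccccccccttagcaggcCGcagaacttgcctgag
Pgam2: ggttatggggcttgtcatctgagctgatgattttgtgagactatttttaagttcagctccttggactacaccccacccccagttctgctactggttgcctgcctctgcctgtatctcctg

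The tissue-type enolases were above background beside *Eno1*. *Eno3*, the muscle enolase, had signals of 8.24, 8.15 and 7.75 and was 2.76 above background after normalization. *Eno2*, the neuronal enolase, had signals of 6.91, 6.71 and 6.63 and a detection p of 0.00107, 0.00321 and 0.00321, so it passed on all arrays close to the threshold. The limma test did not call *Eno2* (level 0.33, adjusted p 0.0645), and without replicate 3 it did (level 0.39, adjusted p 0.00239). *Pklr*, the pyruvate kinase of liver and red cells, had signals of 6.54, 6.46 and 6.44, below background on each array.

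*Ldha*, which encodes the lactate dehydrogenase subunit known for making lactate, had signals of 13.09, 12.97 and 12.63 and was 8.05 above background. *Ldhc*, the subunit known from testis, had signals of 7.19, 6.99 and 6.79 and was 0.95 above background, with a detection p of 1.19e-06 or less on each array. Both dehydrogenases in the table thus passed on all 3 arrays, and *Ldhb* was not measured. In the RefSeq table of GRCm38.p6 *Ldhc* lies downstream of *Ldha* on the same chromosome, with 1 predicted gene, *Gm39011*, between them. The 120 bases before a RefSeq start of each are shown in the same way as those of the mutase genes, because these neighbours carry different promoters although both were above background. The *Ldha* stretch is chr7:46845684-46845803 on the plus strand and holds 18 CpG, and an annotated start of the gene model lies further upstream. The *Ldhc* stretch is chr7:46861143-46861262 on the plus strand and holds 6.
Ldha: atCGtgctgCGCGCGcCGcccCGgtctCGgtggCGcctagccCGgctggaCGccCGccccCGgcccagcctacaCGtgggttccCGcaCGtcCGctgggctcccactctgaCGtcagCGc
Ldhc: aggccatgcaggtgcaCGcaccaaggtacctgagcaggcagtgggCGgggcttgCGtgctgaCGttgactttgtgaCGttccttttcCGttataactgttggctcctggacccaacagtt

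At the entry to the mitochondria 4 of 6 genes were above background, which is 66.7% of them, against 20.6% of all symbols. *Pdha1* and *Pdhb* encode the subunits of the pyruvate dehydrogenase component that decarboxylates pyruvate, with *Pdha1* on the X chromosome. *Pdha1* had signals of 10.60, 10.27 and 10.13 and *Pdhb* had 7.45, 7.28 and 7.01. The *Pdhb* detection p was 0.00113 on replicate 3 and lower on the others, so it was lost only under a threshold of 0.001. Both subunit genes were above background on every array.

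The pyruvate dehydrogenase kinases switch this enzyme off, and they divided evenly. *Pdk1*, known as a target of hypoxia-inducible factors, had signals of 7.47, 6.95 and 6.92 and passed on all arrays. *Pdk3*, which is X-linked, had signals of 7.86, 7.82 and 7.02 and passed on all arrays as well. *Pdk2*, at 6.50, 6.50 and 6.43, and *Pdk4*, a kinase known from fasting, at 6.45, 6.50 and 6.42, passed on none. The *Pdk3* signal on replicate 3 stood apart from the other arrays, with an SD of 0.47 over the 3 arrays, where the median SD of the 20 enzymes above background was 0.26.

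In the pentose phosphate pathway 4 of 7 genes were above background, which is 57.1% of them, against 20.6% of all symbols. *G6pdx*, the X-linked dehydrogenase that opens the oxidative branch, had signals of 7.53, 7.06 and 7.10. *Pgd*, the dehydrogenase that releases the pentose and the second NADPH, had 10.10, 9.79 and 9.44. Both NADPH-forming dehydrogenases were above background on every array, at 1.45 and 4.82 after normalization. *Pgls*, the lactonase between them, had signals of 7.76, 7.35 and 7.45, over the background level on every array, but its detection p was 0.112, 0.000782 and 0.0247, so it passed on replicate 2 only.

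In the non-oxidative branch, *Taldo1*, the transaldolase, had signals of 11.09, 10.95 and 10.80 and was 6.05 above background. *Rpia*, the isomerase that makes ribose phosphate, had signals of 7.08, 7.08 and 6.75, all above background. *Rpe*, the epimerase that makes xylulose phosphate, had 6.56, 6.50 and 6.33 and did not pass on any array. *Tkt*, the transketolase that works with transaldolase, had signals of 7.58, 7.42 and 7.09, over background on each array, and a detection p of 0.0347, 0.00487 and 0.0539. *Tkt* and *Pgls* were both called by the limma test, at 1.70 and 1.97 above background.

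The number of probes behind a symbol was inferred from the bead numbers and the steps of the detection p. Of the enzymes 22 had 1 probe and 19 had several. Above background were 14 of the 22 with 1 probe, 63.6%, against 20.8% of all symbols with 1 probe. Of the 19 with several, 6 were above background, 31.6%, against 20.1% of all symbols with several. In 17 of these 19 the detection p took only values that summing the p-values of 2 or 3 probes can give, and for *Pgls* and *Tkt*, with 4 probes each, this was not shown. Read as such a sum, the sum of the 2 *Pfkl* probes was 0.0118, 0.0160 and 0.440 on replicates 1, 2 and 3, so that at least 1 probe had a p of 0.220 or more on replicate 3. For the 3 *Pgk1* probes the sums were 0.225, 1.20 and 0.702, so that 1 probe had at least 0.0751, 0.399 and 0.234. In all, 7 enzymes had a mean signal over the background level on every array and were not called, namely *Aldoc*, *Gpi1*, *Pfkl*, *Pfkp*, *Pgk1*, *Pgls* and *Tkt*, and each of them has several probes. Symbols with 1 probe can hardly show this, because the background level was itself taken from their detection p. The limma test called 6 of these 7, all but *Pfkp*.

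**Figure D2:**
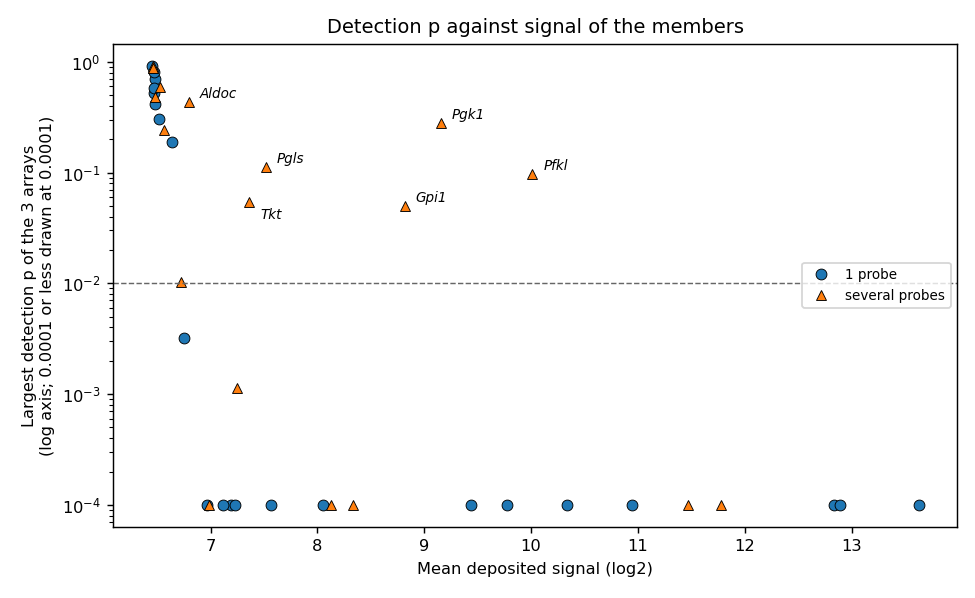
Largest detection p over the 3 arrays (log axis, with 0.0001 or less drawn at 0.0001) against the mean deposited log2 signal for each of the 41 enzymes, with circles for symbols with 1 probe and triangles for those with several. The dashed line marks 0.01, and *Pfkl*, *Pgk1*, *Gpi1*, *Pgls*, *Tkt* and *Aldoc* lie above it at mean signals of 6.79 to 10.01, where no circle does.

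The call rule changed how many enzymes were counted. With a detection p under 0.05 on all arrays 21 were called (51.2%, against 24.7% of all symbols), and with one under 0.001 there were 18 (43.9%, against 17.0%). Passing on at least 2 arrays was met by 24 (58.5%, against 25.6%), and passing on at least 1 array by 28 (68.3%, against 33.0%). A mean signal over the mean background level of 6.64 was reached by 27 (65.9%, against 30.3%). Under each of these rules the share among the enzymes was above that among all symbols. Of the 20 enzymes, 18 were called under every alternative to the detection rule, the exceptions being *Eno2* and *Pdhb*, both lost under a threshold of 0.001. By contrast 12 were not called by the detection rule, by any of its alternatives or by the limma test, and these were *Hk1*, *Hk3*, *Fbp1*, *Fbp2*, *Pfkfb1*, *Pfkfb2*, *Pfkfb3*, *Pgk2*, *Pklr*, *Pdk2*, *Pdk4* and *Rpe*.

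Isozymes known mainly from particular adult tissues were listed apart, and 3 of these 12 were above background, *Eno2*, *Eno3* and *Ldhc*, which is 25.0% of them and close to the 20.6% of all symbols. Of the other 29 enzymes 17 were, which is 58.6% of them. The median of their mean signals was 6.54 against 7.57 for the others. The list of tissue isozymes was drawn up with earlier results of these data known, and the shares depend on which genes it holds. *Pfkm*, the muscle subunit gene and above background, and *Pfkfb2*, known from heart and not above background, were left out of it. The difference between these lists was not tested.

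**Figure D3:**
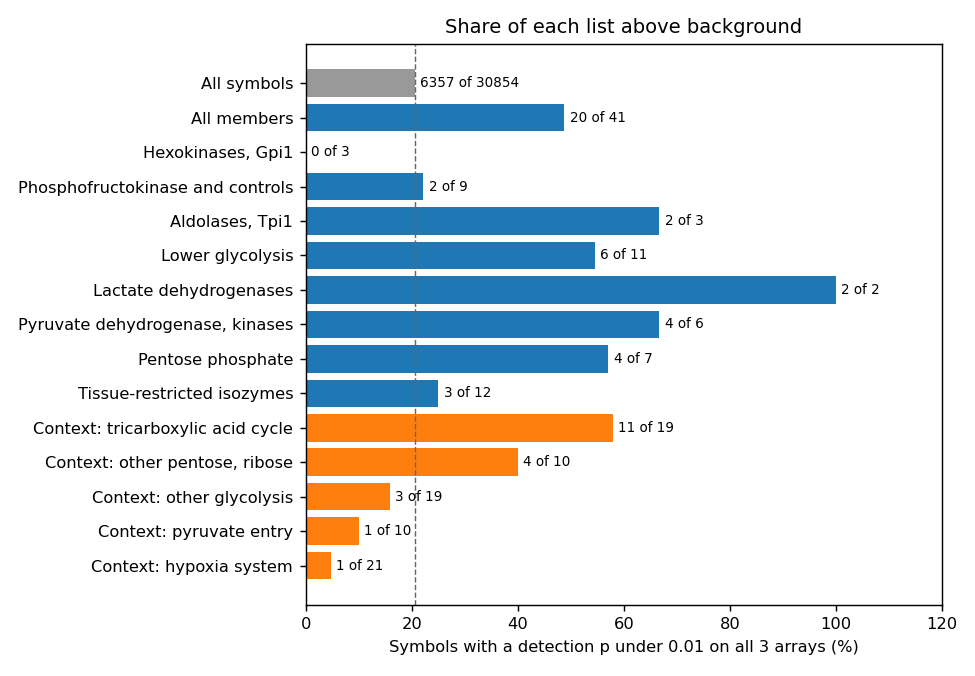
Percentage of each list with a detection p under 0.01 on all 3 arrays, with the enzymes and their role groups in blue, other genes of the pathways in orange, all symbols in grey and the number of genes beside each bar. The dashed line marks the 20.6% of all symbols, and the lists run from 0 of 3 for hexokinases with *Gpi1* to 2 of 2 for the lactate dehydrogenases.

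Genes that border on these pathways were read by the same rule, under which 20.6% of all symbols were above background. Of 19 other genes of glycolysis and gluconeogenesis 3 were above background, which is 15.8% of them, among them *Pgm2*, which encodes a phosphoglucomutase (mean signal 10.57, SD 0.24, n = 3), and *Galm*, which encodes a galactose mutarotase (6.85, SD 0.13). Of 10 other genes of pentose phosphate and ribose use 4 were, which is 40% of them. They were *Prps1* (9.80, SD 0.34) and *Prps2* (6.93, SD 0.12), which make the ribose donor of nucleotides, the ribokinase gene *Rbks* (7.11, SD 0.14), and *H6pd* (6.87, SD 0.24). *H6pd* encodes the dehydrogenase of the endoplasmic reticulum. Pyruvate entry and the rest of the pyruvate dehydrogenase complex had 1 of 10, which is 10% of them. This was *Dlat*, which encodes the acetyl-transferring component (7.00, SD 0.13). The tricarboxylic acid cycle had 11 of 19, which is 57.9% of them, among them *Idh3g* (10.00, SD 0.38), *Suclg1* (9.96, SD 0.36), *Idh3b* (9.36, SD 0.44) and *Dlst* (9.17, SD 0.18). Of 21 genes of the hypoxia-inducible factor system and other regulators of glycolytic genes only *Ddit4* was above background on all arrays (8.99, SD 0.36). That single gene is 4.76% of the list and encodes a stress-induced inhibitor of mTOR signalling. Passing on at least 1 array was met by 8 of the 21, against 33.0% of all symbols. The limma test called 7 of the 21, against 25.7% of all symbols. A mean signal over the mean background level was reached by 9 of the 21, against 30.3% of all symbols, so the count depended on the rule. Replicate 3 weighed on these counts, since without it 4 of the 21 regulators and 5 of the 19 other glycolysis genes were called, and without replicate 1 there were 2 of the 21 regulators.

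Most enzymes differed between the arrays in the same direction. The deposited signal was highest on replicate 1 in 36 of the 41 enzymes and lowest on replicate 3 in 37 of them. Both held in 18 of the 20 enzymes above background in 79.2% of all symbols above background and in 66.6% of all symbols. The median difference of replicate 1 over replicate 3 was 0.48 for these 20 enzymes and 0.47 for all symbols above background.

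After normalization the enzymes lay close together on the arrays. The median over the 41 enzymes of the level on an array minus the mean of the other arrays was -0.03, -0.05 and 0.08 for replicates 1, 2 and 3, against -0.01, -0.01 and 0.03 for all symbols above background. Replicate 3 was the higher side in 29 of the 41 enzymes and in 17 of the 20 above background, and in 3462 of 6357 symbols above background. This direction depended on the scaling, since with the deposited signals set to equal medians the value was 0.17 for replicate 1 and -0.11 for replicate 3. The visceral endoderm markers had a median of 0.56 on replicate 2 by the same normalized measure, where that of the enzymes was -0.05. The embryonic region markers had -0.20 there, and the genes of the tricarboxylic acid cycle 0.10. Whether the enzymes follow any of these lists was not tested. The SD of the normalized level over the arrays had a median of 0.13 in the enzymes above background and 0.17 in all symbols above background.

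Single enzymes departed further on some arrays. *Pdk3* was 0.52 higher on replicate 2 and lower on replicate 3, at -0.74, than the mean of the other arrays. *G6pdx* and *Pdk1* were lowest on replicate 2, at -0.62 and -0.60, with 40 and 26 beads there. With the deposited signals set to equal medians *Pdk3* was still at -0.70 on replicate 3, and *G6pdx* and *Pdk1* were at -0.27 and -0.26 on replicate 2. *Aldoc* and *Pgls* were at 0.57 and 0.50 on replicate 3 after normalization and at 0.07 and 0.01 with equal medians. For *Eno1*, *Taldo1* and *Pdha1* the sign on replicate 3 turned with the scaling, from 0.32, 0.34 and 0.26 after normalization to -0.09, -0.11 and -0.19.

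**Figure D4:**
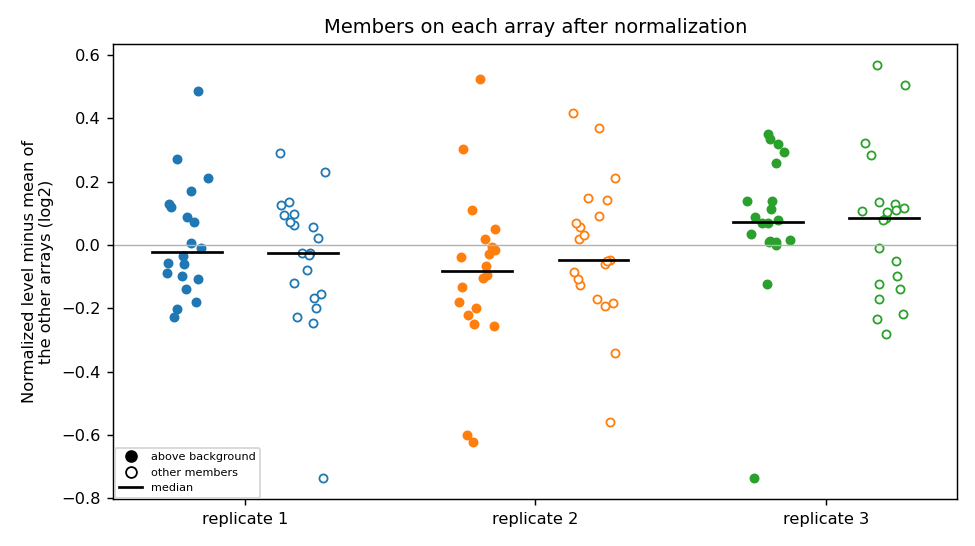
Normalized log2 level of each enzyme on an array minus the mean of the other arrays, for replicates 1, 2 and 3, with filled points for the 20 enzymes above background, open points for the other 21 and bars for the medians. The medians lie within 0.1 of 0 on each array, and the filled point at -0.74 on replicate 3 is *Pdk3*.

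The promoters of the 41 enzymes, which all matched a RefSeq gene, were then described. A RefSeq promoter here covers 250 bases before to 50 after a start, 300 in all, and a gene can have several. Counting CpG in the promoter of each gene that held most of them, the median was 22.5 for the 20 enzymes above background (3 to 35), 19 for the other 21 (1 to 32) and 8 for all 27025 genes. The isozymes known from particular tissues had a median of 7.5 (1 to 20) and the other 29 enzymes 22 (12 to 35). Within the families the counts were 30 for *Pgam1* and 1 for *Pgam2*, 30 for *Ldha* and 9 for *Ldhc*, 24 for *Pgk1* and 4 for *Pgk2*, and 27 for *Pkm2* and 8 for *Pklr*. Among the enolases *Eno1* had 25, *Eno2* 15 and *Eno3* 3, although all 3 were above background. *Pfkm*, the only phosphofructokinase gene above background, had 12, against 20 for *Pfkl* and 21 for *Pfkp*. *Pfkfb4*, above background, had 16, against 30 for *Pfkfb3*, 20 for *Pfkfb1* and 14 for *Pfkfb2*. Of the kinases above background *Pdk1* had 25 and *Pdk3* 35, against 25 for *Pdk2* and 12 for *Pdk4*. The count and the call thus did not always go together. The count of CpG was chosen after signals and sequences had been seen, and is a description of these genes.

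**Figure D5:**
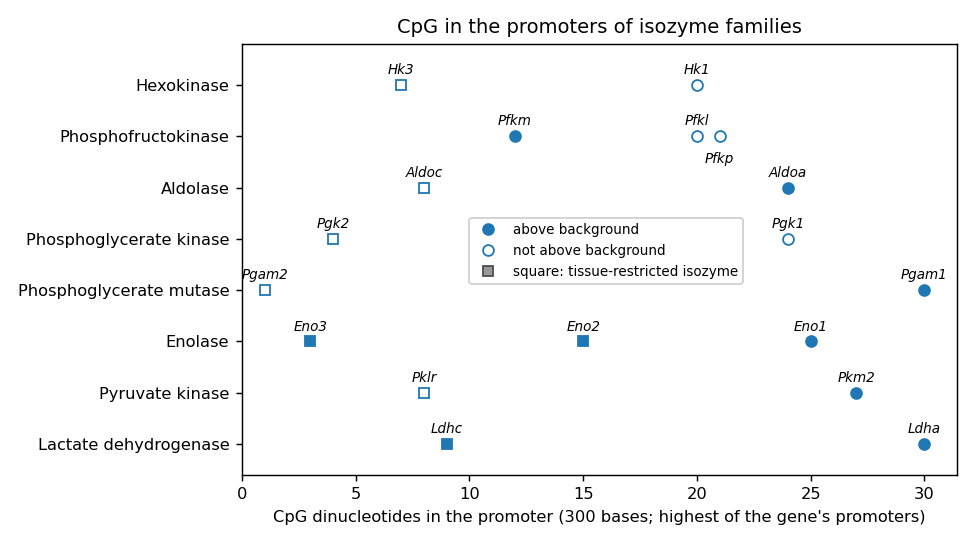
Number of CpG dinucleotides in the promoter (300 bases, the highest of each gene's promoters) for the members of 8 isozyme families, with filled symbols for genes above background and squares for isozymes known mainly from particular tissues. The squares lie at 1 (*Pgam2*) to 15 (*Eno2*), the circles at 12 (*Pfkm*) to 30 (*Ldha* and *Pgam1*), and *Eno3*, *Eno2* and *Ldhc* are filled squares.

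The letters ACGTG, the core bound by hypoxia-inducible factors, were looked for on both strands, with CACGTG, the core bound by MYC and related factors, which contains them. At least 1 promoter with ACGTG was found in 9 of the 20 enzymes above background, which is 45% of them. It was found in 8 of the other 21, which is 38.1% of those, against 21.8% of all 27025 genes. ACGTG itself holds a CpG, and the median CpG counts of these sets were 22.5, 19 and 8. Neither this nor the number of promoters per gene was allowed for. The longer CACGTG was found in 2 of the 20, *Pfkm* and *Ldha*, and in 4 of the other 21, against 8.09% of all genes. In the *Ldha* stretch printed above it begins 48 bases before the start, and CACGT, the other strand of ACGTG, stands again 34 bases before it. In the *Pgam1* stretch ACGTG begins 114 bases before the start. These matches show only which letters stand there.

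For 5 of the symbols the RefSeq table lists the name also as an older symbol of another gene, so that the probe behind them is less certain. These were *Eno1* (also *Eno1b*), *Gpi1* (*Pigq*), *Pdk1* (*Pdpk1*), *Fbp1* (*Fbp2*) and *Fbp2* (*Fbp1* and *Khsrp*). The table also holds 3 rows under older symbols of members, *C230090D14* for *Pfkfb4*, *D530020C15Rik* for *Pdk1* and *Fbp3* for *Fbp1*, and none of them passed on any array, with mean signals of 6.43, 6.44 and 6.40. The probe for *Pfkfb4* under its own symbol was above background while this other row was not. Glycolytic genes such as *Gapdh* are known to have many processed copies in the mouse genome, and signal from such copies was not tested.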

How the data were processed

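Total RNA of the embryonic region was measured on 3 arrays, and the labels gave the replicate numbers. The values deposited by the authors were log2 signals per gene symbol without normalization between arrays, each with a detection p-value also deposited. The bead numbers deposited by the authors, read as a score, served to infer the probes per symbol (whole numbers within 0.01, with detection p on steps of 1 in 936). The deposited standard error over beads, also a score, entered no value. Partek is the tool named by the study and the labels, and the array annotation is not given in the sources used here. No column lacked a sample (0).

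For levels, normexp correction (fitted on the detection p of single-probe symbols), an offset of 16 and quantile normalization were applied, and the distance from background was tested with limma (lmFit with an intercept, eBayes, one-sided) over 30854 symbols with Benjamini-Hochberg adjustment at 0.05. The script was tested on simulated data. Nothing says that the arrays hold separate litters, so p-values rest only on the spread between these samples, which may be technical. Because the standard error was the same for every gene, they do not measure the spread of a single gene. The number of arrays limits the precision.

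All members are described, and of each context list at most 4 genes above background with the highest mean signal are named, except 1 that is not reported here. The members, lists and tests were chosen with earlier results of these data known. Names and promoters came from RefSeq (GRCm38.p6), with 41 of 41 members matched, and coordinates are given for the printed promoter stretches only, in that build, because no build is named for the arrays. Alternatives were other detection thresholds, fewer arrays, the mean signal, older symbols, other normalizations, a filter on dim symbols, another background level, leaving out each replicate and, chosen after seeing the data, symbols with 1 probe only. Python 3.11.15, numpy 2.4.6, pandas 2.3.3, matplotlib 3.10.9, R 4.3.3 and limma 3.58.1 were used.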

Additional observations from a re-analysis of the deposited data

How the results depend on the processing

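The count of 20 enzymes above background ranged from 18 to 28 over the alternatives and from 21 to 22 when a replicate was left out. With symbols of 1 probe only it was 14 of 22, and with older symbols added it was 20. The limma test called 25 enzymes, and 24 to 26 over its alternatives, with 25 to 26 when a replicate was left out. The 20 of 79 other genes of the pathways were 25.3% of them, against 20.6% of all symbols. They became 35 with detection on at least 1 array, against 33.0% of all symbols. With the mean signal over the mean background level they became 39, against 30.3% of all symbols. Both of these rules ask for less, and without a replicate the count was 20 to 26. With deposited signals scaled to equal medians, the deviation of replicate 1 went from -0.03 to 0.17 and that of replicate 3 from 0.08 to -0.11, and the cause was not tested. When a replicate was left out, the deviations ranged from -0.05 to 0.00164 for replicate 1, from -0.08 to -0.00164 for replicate 2 and from 0.05 to 0.08 for replicate 3. For single enzymes, the call was unchanged in 302 cases, gained in 24 and lost in 2, and for the 27 enzymes whose level is given the level test kept its side of the threshold in 214 cases, gained 1 call, *Eno2* without replicate 3, and lost 1, *Aldoc* with the median as background level. No paired analysis was possible because all arrays belong to 1 group. The planned comparison of protein sequences between isozymes was not run. The signal over background sets the limit of detection, and a gene near background, such as *Pfkp* or *Hk1*, is not shown to be absent.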
